A study of Mus musculus with 67 samples.

Results

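RNA attached to tagged ribosomes of Cx3cr1-expressing cells was compared with the RNA of the whole brain extract it was taken from, in mice with a tamoxifen-inducible driver. The comparison used 6 libraries, 3 from the pull-down and 3 from the input, out of 24 libraries in the experiment on driver lines and 67 in the series. All 6 came from C57BL/6J mice labelled CX3CR1CreER/WT RLP22HA/HA, given 5 mg of tamoxifen in corn oil by gavage 4 times on alternate days at 4 to 6 weeks of age. Brains had been flash-frozen and homogenised in a buffer with cycloheximide. The extract was cleared by centrifugation, 10 µl of it was kept as input, and the rest was incubated for 4 h with 125 µg of anti-HA antibody (pull-down) or 1 µg of mouse IgG1 (3 libraries, the background of the method). The antibody amounts were therefore not matched between pull-down and IgG1. Input carries the cell type label microglia as well, but its isolation label and its markers are those of whole brain. The design text gives 3 individual mice per experiment as biological repeats. Of 24411 genes in the table, 11868 passed the count filter and were tested, and these are the members described here.

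In RiboTag mice, Cre recombination makes a cell produce the ribosomal protein Rpl22 with an HA tag, so its ribosomes, and the mRNA being translated on them, can be drawn out of a whole-tissue extract with no cell sorting. Microglia are the resident macrophages of the brain parenchyma. They survive on Csf1 receptor signals, are kept in their brain-specific state by transforming growth factor beta, survey tissue through purine receptors, and clear debris through phagocytic receptors and lysosomes. The driver is a Cre-oestrogen receptor fusion knocked into 1 Cx3cr1 allele, and Cx3cr1 is also expressed by border macrophages of the meninges and vessels and by some blood myeloid cells, so their ribosomes can be tagged too.

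PU.1, the product of Spi1, is a transcription factor that macrophages and microglia depend on, and GAGGAAGT is a sequence of the type it binds. This motif was searched on both strands (as GAGGAAGT or ACTTCCTC) from 250 bases before to 50 bases after the start of each gene in the RefSeq promoter table (GRCm38.p6). A gene was counted as holding the motif if any of its promoter entries did. The motif was present in 997 of 27025 genes of that table (3.69%). It was present in 318 of the 9178 tested genes with a promoter entry (3.46%). Among genes more than 2-fold higher in the pull-down it was present in 96 of 1371 (7.0%), and among genes more than 2-fold lower in 31 of 1472 (2.11%). Among list members with a promoter entry, it was in 3 of 18 haematopoietic signalling genes, in 2 of 20 of the microglial identity list, in 0 of 13 of a list of myeloid transcription factors and in 0 of 9 of the pan-neuronal list. These shares are descriptions and a match is no evidence of binding. A promoter from signalling, a further signalling gene, a lysosomal protease and a complement chain are shown because all 4 genes were far higher in the pull-down; the 4 were chosen after their values were seen. Each is written 5′ to 3′ along the gene's strand, with the motif in capitals.
Inpp5d (chr1:87620062-87620361, + strand): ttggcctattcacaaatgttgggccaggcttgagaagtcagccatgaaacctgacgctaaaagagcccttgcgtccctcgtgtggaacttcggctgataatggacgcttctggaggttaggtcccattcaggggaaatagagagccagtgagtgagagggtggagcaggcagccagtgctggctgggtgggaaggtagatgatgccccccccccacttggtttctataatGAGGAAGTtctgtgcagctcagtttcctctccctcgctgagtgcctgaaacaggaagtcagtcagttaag
Vav1 (chr17:57278850-57279149, + strand): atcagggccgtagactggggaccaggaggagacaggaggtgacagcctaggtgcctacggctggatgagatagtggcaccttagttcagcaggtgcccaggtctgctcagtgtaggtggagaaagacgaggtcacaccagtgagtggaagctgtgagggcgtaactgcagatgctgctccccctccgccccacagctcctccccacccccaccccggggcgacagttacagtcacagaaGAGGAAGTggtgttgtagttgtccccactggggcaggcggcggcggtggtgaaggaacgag
Ctss (chr3:95526536-95526835, + strand): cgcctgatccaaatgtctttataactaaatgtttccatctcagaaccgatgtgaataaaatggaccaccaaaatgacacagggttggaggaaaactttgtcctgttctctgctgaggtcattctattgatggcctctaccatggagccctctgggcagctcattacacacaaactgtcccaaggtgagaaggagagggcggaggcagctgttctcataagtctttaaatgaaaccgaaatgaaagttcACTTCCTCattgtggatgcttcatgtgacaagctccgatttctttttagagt
C1qc (chr4:136892865-136893164, − strand): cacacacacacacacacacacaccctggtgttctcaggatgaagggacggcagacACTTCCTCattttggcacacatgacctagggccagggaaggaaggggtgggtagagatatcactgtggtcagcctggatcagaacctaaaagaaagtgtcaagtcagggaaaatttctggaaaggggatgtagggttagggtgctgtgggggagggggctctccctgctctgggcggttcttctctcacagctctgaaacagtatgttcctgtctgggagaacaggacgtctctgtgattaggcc
The first base of the motif lies 20 bases before the start of Inpp5d, 11 before that of Vav1, 2 before that of Ctss and 195 before that of C1qc, and in Ctss and C1qc it is on the other strand. Vav1, an exchange factor for Rac, was at 641, 702 and 650.0 CPM (counts scaled to a common library size of 1000000) in the pull-down libraries and at 5.61, 3.73 and 8.03 CPM in input. Ctss, a lysosomal cysteine protease, was at 6476, 6639.7 and 5356 CPM against 121, 108 and 146 CPM.

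Most of the transcriptome differed between the pull-down and input. By edgeR's quasi-likelihood test at a Benjamini-Hochberg adjusted p under 0.05, 7617 of 11868 genes were called (64.2%), 3402 higher in the pull-down (28.7%) and 4215 lower (35.5%). Because calls against no difference were so many, a second test asked for a difference of more than 2-fold; 1740 genes were higher (14.7%) and 1975 lower (16.6%) by it. The median log2 difference over all tested genes was -0.28, which stands beside the medians of gene groups. In the same way the shares of 28.7% higher and 35.5% lower stand beside the counts of every list. In bulk RNA, fewer cells of a type and less RNA per cell cannot be told apart, here or for any cell type named. The direction of small differences depended on scaling. With library totals alone 2372 genes were higher and 5878 lower, so 28.8% of calls were higher in place of 44.7%, and the median of all genes moved by -0.46.

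Libraries held 918587 to 1152419 counts in the pull-down, 1285195 to 2084562 in input and 906807 to 1215785 in IgG1. The 10 most abundant genes took 11.55 to 13.67% of counts in the pull-down and 4.33 to 4.81% in input. The third input library stood apart from the other two input libraries: of 7082 genes averaging 20 CPM or more in input, 427 (6.03%) lay more than 2-fold from both others in it, against 0.226 to 1.12% in each of the other 8 libraries of the 3 groups. Without it there were 6979 calls (3474 higher, 3505 lower). Rpl22 itself, whose counts do not separate tagged from untagged copies, was at 162, 113 and 152 CPM in the pull-down and 117, 143 and 124 CPM in input, with overlapping groups (log2 difference 0.16 ± 0.19 SE, adjusted p = 0.467).

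All 28 genes of the microglial identity list were tested and all 28 were higher in the pull-down, by log2 differences of 3.80 to 7.31 with a median of 6.05, beside 28.7% of all tested genes called higher. Tmem119, a membrane protein that marks microglia, was at 5268, 4709 and 4243 CPM in the pull-down and 46.3, 38.0 and 34.4 CPM in input (log2 difference 6.91 ± 0.38, adjusted p = 3.99e-14). Olfml3, a secreted glycoprotein, was at 2048, 1871 and 2044 CPM against 22.4, 40.2 and 18.3 CPM (6.23 ± 0.28). The pull-down and input libraries did not overlap for any of the 28, beside 30% of all tested genes that were higher without overlap. P2ry12, the ADP receptor that guides microglial processes to injury, had the smallest difference of the list, with 227, 232 and 149 CPM against 11.2, 11.9 and 18.7 CPM (3.80 ± 0.33). Cx3cr1, the fractalkine receptor, with CreER in 1 of its 2 alleles in these mice, was at 729, 699 and 622 CPM in the pull-down and 5.61, 20.9 and 19.6 CPM in input.

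As a share of each library, the identity list took 9.03, 9.30 and 8.07% of counts in the pull-down (mean 8.80%, SD 0.644, n = 3) and 0.157, 0.166 and 0.163% in input. IgG1 libraries held 0.148, 0.138 and 0.169%, close to input. The list of border macrophage genes took 0.121 to 0.130% of pull-down counts. Pan-neuronal genes took 0.610, 0.503 and 0.626% of pull-down counts against 2.17, 2.01 and 1.74% of input counts, a smaller share that was still far from 0.

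**Figure D1:**
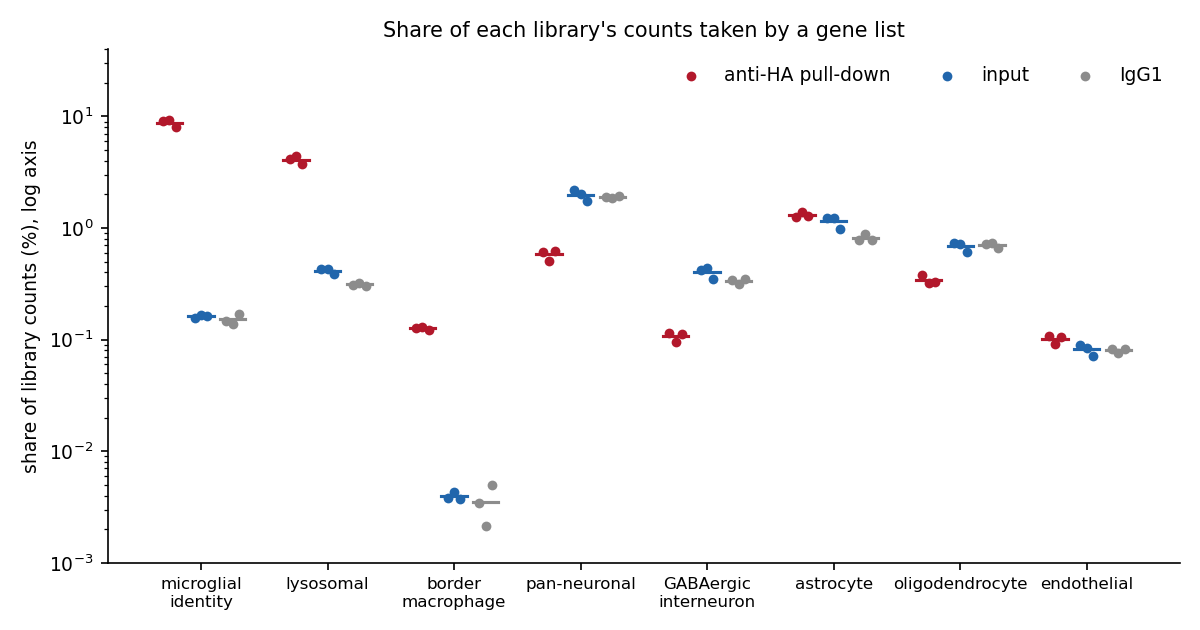
Share of all counts taken by each gene list in every pull-down, input and IgG1 library (log axis, percent; each point is a library and each line the mean of 3). The microglial identity list sits between 8.07 and 9.30% in the pull-down and between 0.138 and 0.169% in all 6 other libraries, while the pan-neuronal list is lower in the pull-down than in input.

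The called genes with the most pull-down counts encode secreted, lysosomal and surface proteins of macrophages. Cst3, which encodes the protease inhibitor cystatin C, was at 35975, 46311 and 34762 CPM in the pull-down and 2294, 2242 and 1953 CPM in input (log2 difference 4.17 ± 0.23). C1qa, a chain of the complement protein C1q, was at 27145, 31409 and 23777 CPM against 338, 314 and 312 CPM (6.42 ± 0.32), and C1qb and C1qc, the other chains, differed by 6.16 ± 0.35 and 6.52 ± 0.38. Ctsd, a lysosomal aspartyl protease, was at 21731, 24841 and 18800.0 CPM against 729.5, 699.8 and 537 CPM (5.06 ± 0.26). In all of these the groups did not overlap. Apoe, the apolipoprotein that astrocytes also make in quantity, was high on both sides, at 14308, 16764 and 13670.0 CPM against 5557, 5987 and 4556 CPM (1.47 ± 0.26, adjusted p = 1.7e-05). Laptm5, a lysosomal membrane protein of blood-lineage cells, differed by 6.12 ± 0.42, and Selplg, the P-selectin ligand, by 6.94 ± 0.42.

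Genes far above input included receptors and adaptors of the immune system. Csf1r, the receptor for Csf1 and Il34, was at 9525, 8829 and 7084 CPM in the pull-down and 69.4, 65.6 and 41.5 CPM in input (7.18 ± 0.32, adjusted p = 3.62e-19). Lag3, a receptor of the immunoglobulin family known from T cells, was at 331, 287 and 176 CPM against 1.40, 2.24 and 0.892 CPM (7.45 ± 0.52). Crybb1, a beta-crystallin first known from the lens, was at 637, 1214 and 855 CPM against 9.11, 7.45 and 1.78 CPM (7.31 ± 0.40). Each of these was far from overlapping. Hcls1, a cortactin-like actin regulator of haematopoietic cells, differed by 7.08 ± 0.31. C5ar2, a receptor for the complement fragment C5a, had 51 reads in the pull-down and 0 in input, where a floor of 3 reads over the group makes it at least 35.9-fold higher. Cd22, a Siglec receptor, had 120 reads against 1, a ratio of 254 after allowing for library size, with a 95% counting interval of 44.6 to 10096, and its only input read was in the third input library. That interval covers counting error alone. 

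Of the 18 myeloid transcription factors listed, 17 were tested; 14 were higher, none was lower and the median was 4.17. Irf8, a factor of the interferon regulatory family that macrophage development requires, was at 689.6, 832 and 638 CPM in the pull-down and 7.71, 13.4 and 8.48 CPM in input (6.2 ± 0.26, adjusted p = 5.88e-21). Cebpa, a CCAAT-binding factor of myeloid differentiation, was at 428, 483 and 414 CPM against 7.71, 11.2 and 9.82 CPM (5.51 ± 0.28). No library of either group overlapped for these factors. Spi1, given for its link to the motif, was at 499.6, 462 and 372 CPM against 4.91, 5.22 and 4.46 CPM (6.50 ± 0.38). The MEF2 factors, which are abundant in neurons as well, overlapped between the groups: Mef2a was at 91.2, 143 and 95.7 CPM against 28.7, 65.6 and 117 CPM, and Mef2c at 86.0, 81.8 and 71.7 CPM against 67.3, 73.8 and 118 CPM. Neither passed the test (adjusted p = 0.108 and 0.6 by edgeR). Mef2a did pass as higher without the third input library (1.31) and, by adjusted p, with a replicate block (0.0488), DESeq2 size factors (0.0473), the DESeq2 Wald test (0.0432) and no filter on low counts (0.0166). Mef2c passed as lower with library totals alone (-0.61, adjusted p = 0.0138 by edgeR).

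Signalling genes of blood-lineage cells were higher throughout. All 20 tested genes of the haematopoietic signalling list were higher (22 listed, median 5.56), as were all 14 tested pattern recognition genes (22 listed, median 5.31). All 6 tested components of the phagocyte oxidase were higher (median 6.47). So were 11 of 12 tested genes of the list of Fc, Siglec and paired receptors (14 listed, median 5.70), which also holds Pilra, Lair1, Cd300a and Clec12a. Part of these counts was set by the count filter. Tlr1 had 54 pull-down and 2 input reads and Nlrp3 had 37 and 1. Such genes could hardly pass the filter except through pull-down libraries. Listed genes low in both groups, such as Cd180 (1 and 1) and Clec4a3 (7 and 6), were not tested. The same holds for other lists with few input reads. Inpp5d, a lipid phosphatase that limits PI3-kinase signals, was at 709, 798 and 844 CPM in the pull-down and 14, 6.71 and 10.3 CPM in input (6.23 ± 0.28). Nckap1l, the haematopoietic subunit of the WAVE actin complex, was at 347, 514 and 566 CPM against 6.31, 8.94 and 6.25 CPM (6.06 ± 0.31). Fcgr1, the high-affinity receptor for IgG, was at 817, 737 and 695 CPM against 9.81, 11.2 and 9.37 CPM (6.21 ± 0.27). The groups lay far apart in each. Fcer1g, the signalling chain of several Fc receptors, differed by 6.72 ± 0.35 and Fcgr3, a low-affinity IgG receptor, by 5.93 ± 0.28.

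Among sensors of microbes, Ly86, the partner of the Toll-like receptor Cd180, was at 1000.4, 966 and 679 CPM in the pull-down and 13.3, 23.8 and 20.5 CPM in input (5.51 ± 0.28). Tmem173, which encodes STING and relays cytosolic DNA signals, was at 258, 247 and 208 CPM against 1.40, 4.47 and 4.46 CPM (6.02 ± 0.35). Cd14, the co-receptor for lipopolysaccharide, differed by 5.87 ± 0.35. The counts did not overlap in any of them. Within the oxidase list Hvcn1, the proton channel that offsets its charge, was at 764, 909.7 and 761 CPM against 7.71, 4.47 and 5.80 CPM (7.06 ± 0.34), and Cyba, the p22-phox subunit, differed by 6.48 ± 0.31. Purine-sensing genes were mixed. Of 9 tested (13 listed) 5 were higher and 3 lower, beside 28.7% higher and 35.5% lower over all tested genes. Entpd1, the ectoenzyme that breaks down extracellular ATP and ADP, was at 380.1, 354 and 337 CPM against 7.71, 5.22 and 5.80 CPM, P2ry6, the UDP receptor linked to phagocytosis, at 322, 392 and 288 CPM against 4.91, 5.22 and 3.12 CPM, and Adora1, an adenosine receptor of neurons, at 157, 146 and 211 CPM against 304, 341 and 403 CPM. Adora1 was thus lower in every pull-down library (-1.03 ± 0.19), while Entpd1 and P2ry6 were higher by 5.82 ± 0.28 and 6.26 ± 0.34.

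Ligands that other brain cells present to microglia and the receptors that read them mostly differed in opposite directions. Of 9 tested ligand genes (10 listed) 6 were lower and 2 higher (median -0.88), and all 8 tested genes of the receptor list (11 listed, with Tgfb1 and its anchor Nrros among them) were higher (median 3.84). Il34, the neuronal ligand of Csf1r, was at 11.6, 14.9 and 13 CPM in the pull-down and 30.1, 20.1 and 22.3 CPM in input (-0.88 ± 0.33, adjusted p = 0.0211). The call was lost without the first pull-down, the third pull-down or the first input library (adjusted p = 0.0756, 0.0583 and 0.0884 by edgeR). It was also lost in edgeR with DESeq2 size factors (adjusted p = 0.0537) and by the DESeq2 Wald test (adjusted p = 0.068). Csf1, the other ligand, was at 37.2, 16.4 and 12.0 CPM against 37.1, 26.1 and 32.1 CPM; the groups overlapped and the test was not passed (-0.55 ± 0.35, adjusted p = 0.161), but it did pass without the first pull-down library (-1.18) and with library totals alone (-1.02). Cx3cl1, the fractalkine bound by Cx3cr1, was at 257, 239 and 227 CPM against 352, 415 and 356 CPM (-0.63 ± 0.18; -0.44 and not passing without the second input library). Every pull-down library was below every input library for Il34 and Cx3cl1, by less than 2-fold on average.

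Cd47, the signal that holds back phagocytosis, was at 43.7, 53.5 and 38.0 CPM in the pull-down and 111, 112 and 78.1 CPM in input (-1.15 ± 0.22), while its receptor Sirpa was at 1843, 2209 and 1842 CPM against 184, 171 and 135 CPM (3.59 ± 0.20). Cd200, a neuronal membrane protein that quiets myeloid cells, was at 8.99, 0 and 5.43 CPM against 25.9, 35.8 and 55.8 CPM (-2.96 ± 0.42, and -3.63 without the first pull-down library). Here ligand and receptor of the same pair separated in opposite directions, although Sirpa transcripts were present in input too. In the transforming growth factor family the isoforms split. Tgfb1 was at 786, 773 and 762 CPM against 7.71, 6.71 and 4.02 CPM (7.01 ± 0.33), higher than in any input library. Tgfb3 was at 3.85, 4.46 and 5.43 CPM against 14.7, 14.2 and 15.6 CPM (-1.66 ± 0.40), lower than in any input library, and Tgfb2 had 2 reads in the pull-down and 48 in input, a ratio of 11.4 towards input with a 95% counting interval of 2.98 to 96.5; without the third input library it was not called (adjusted p = 0.169 by edgeR).

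Both receptor subunits were higher in the pull-down, Tgfbr1 with 1266, 1629 and 899 CPM against 32.2, 50.7 and 47.3 CPM (4.86 ± 0.26) and Tgfbr2 with 176, 204 and 137 CPM against 9.11, 11.9 and 10.3 CPM (4.03 ± 0.27). Nrros, which tethers latent transforming growth factor on microglia, was at 121, 138 and 108 CPM against 10.5, 11.9 and 7.14 CPM (3.65 ± 0.32). None of the 3 overlapped between groups. Csf2rb, the shared beta chain for Csf2 and related cytokines, differed by 5.96 ± 0.41 (6.57 without the second input library) and Csf2ra, the Csf2-specific chain, by 2.63 ± 0.34. Gas6 and Pros1, which bridge dying cells to the receptors Axl, Tyro3 and Mertk, were the ligands that went the other way. Pros1 was at 73.2, 89.2 and 78.3 CPM against 2.80, 2.98 and 2.68 CPM (4.79 ± 0.36) and Gas6 at 654, 867 and 649 CPM against 172, 168 and 216 CPM (1.96 ± 0.18). Among their receptors Axl was at 127, 87.7 and 100.0 CPM against 39.9, 51.4 and 46.8 CPM (1.19 ± 0.25), and Tyro3, expressed by neurons, at 62.9, 53.5 and 83.7 CPM against 145, 184 and 195 CPM (-1.38 ± 0.21). Axl was higher and Tyro3 lower in every pull-down library. In the wider phagocytic receptor list 7 of 12 tested genes were higher and 1, Tyro3, was lower; 2 were lower without the first pull-down library and 3 with library totals alone.

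**Figure D2:**
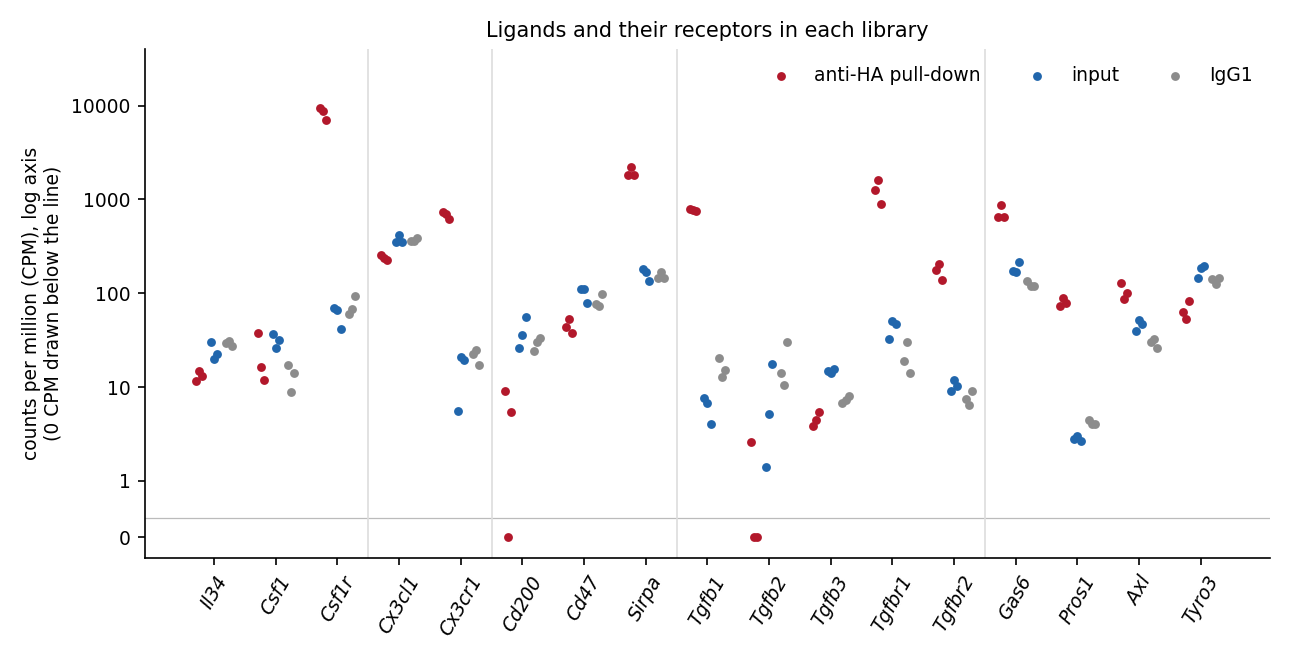
CPM in each pull-down, input and IgG1 library for ligands and their receptors (log axis, with values of 0 drawn below the grey line and each point a library). Beside input, receptors Csf1r, Cx3cr1, Sirpa, Tgfbr1 and Tgfbr2 are higher in all 3 pull-down libraries and Cd200, Cd47 and Tgfb3 are lower in all 3. Tgfb1, Gas6 and Pros1 are higher with the receptors.

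Genes of antigen presentation were higher in 15 of 15 tested (18 listed; median 4.32). H2-D1, a class I heavy chain whose reads can be shared with near-identical class I genes, was at 2441, 2518 and 1589 CPM in the pull-down and 137, 137 and 128 CPM in input (4.03 ± 0.21). The inducible catalytic subunits of the immunoproteasome were all higher. Psmb8 was at 660.1, 705 and 500.0 CPM against 18.9, 16.4 and 5.80 CPM (5.57 ± 0.29), Psmb9 at 143, 147 and 109.8 CPM against 1.40, 2.98 and 2.23 CPM (5.85 ± 0.40), and Psmb10 at 810.4, 687 and 589 CPM against 204, 187 and 182 CPM (1.86 ± 0.19). In contrast Psmd14, a deubiquitinase of the regulatory particle, was at 30.8, 19.3 and 16.3 CPM against 126, 135 and 134 CPM (-2.57 ± 0.26). Of 37 tested proteasome genes (39 listed) 13 were higher and 13 lower, beside 28.7% higher and 35.5% lower over all tested genes; with library totals alone 6 were higher and 19 lower, and without the second input library 8 were lower.

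Of 15 tested interferon-stimulated genes (20 listed) 13 were higher and 1 lower (median 2.22); none was lower with no filter on low counts, DESeq2 size factors, the DESeq2 Wald test or without the first pull-down, the second pull-down, the first input or the third input library. Bst2, the tetherin that holds budding virus at the membrane, was at 935, 822 and 704 CPM in the pull-down and 34.3, 20.1 and 32.6 CPM in input (4.8 ± 0.27). Isg15, a ubiquitin-like protein, was at 97.6, 72.8 and 79.4 CPM against 11.2, 15.7 and 10.3 CPM (2.77 ± 0.32), and Irf9, the DNA-binding part of the interferon factor ISGF3, differed by 2.44 ± 0.25. These groups did not overlap. Of 13 tested cytokines and chemokines (20 listed) 9 were higher and 4 lower (2 lower without the second input library), beside 28.7% higher and 35.5% lower over all tested genes. Cxcl16, a membrane-bound chemokine, was at 253, 223 and 176 CPM against 2.10, 4.47 and 4.46 CPM (5.81 ± 0.34). Ccl6 differed by 5.18 ± 0.38 and Il16 by 3.90 ± 0.28. Cxcl12, the ligand of Cxcr4, was instead at 20.5, 17.8 and 18.5 CPM against 44.2, 66.3 and 74.1 CPM (-1.70 ± 0.31), below every input library.

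Lysosomal genes were higher in 26 of 28 tested, with a median of 2.82 and no gene lower, and the list took 3.74 to 4.4% of pull-down counts against 0.385 to 0.434% of input counts. Man2b1, a lysosomal mannosidase, was at 1546, 1512 and 1325 CPM in the pull-down and 38.5, 34.3 and 23.6 CPM in input (5.52 ± 0.26). Ctsz, a cathepsin carboxypeptidase, was at 1806, 1999 and 1532 CPM against 60.3, 49.2 and 33.5 CPM (5.24 ± 0.26), and Ctsh, a cathepsin aminopeptidase, differed by 5.23 ± 0.26. All pull-down libraries were above all input libraries in them. The 2 genes that did not pass, named here after their values were seen, were Gaa, the acid glucosidase, with a log2 difference of 0.13 ± 0.17 (-0.33 with library totals alone), and Lamp2, a membrane protein of the lysosome, at -0.95 ± 0.43. Lamp2 did pass as lower without the first pull-down library (-1.73) and, by adjusted p, with a replicate block (0.0444), limma voom (0.0406), no filter on low counts (0.0476) and library totals alone (0.00386), so that the count of no gene lower does not hold in those fits.

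All 19 tested genes of the list of leukocyte actin regulators were higher (20 listed; median 4.09). Cyth4, an exchange factor for Arf GTPases, was at 1373, 1488 and 1298 CPM in the pull-down and 13.3, 14.2 and 9.82 CPM in input (6.82 ± 0.29), and Arpc1b, a subunit of the Arp2/3 complex, was at 2295, 2233 and 2175 CPM against 56.1, 70.8 and 71.4 CPM (5.07 ± 0.22). Integrin beta 5 (Itgb5), which pairs with alpha V in uptake of dying cells, was at 3158, 3145 and 2322 CPM against 34.3, 23.8 and 19.6 CPM (6.81 ± 0.25). Cyth4, Arpc1b and Itgb5 were separated widely. The alpha V gene Itgav, given as the partner of Itgb5, had 8 reads in the pull-down and 33 in input and showed no such rise. Among matrix proteases and their inhibitors 7 of 12 tested were higher and 4 lower (15 listed, median 1.89), beside 28.7% higher and 35.5% lower over all tested genes. Leaving out any 1 library other than the third of the pull-down took the lower ones to between 0 and 2. The gelatinases Mmp2 and Mmp9 were at 139, 103 and 119.6 CPM against 2.80, 2.24 and 2.23 CPM, and at 129.7, 114 and 92.4 CPM against 1.40, 1.49 and 2.68 CPM, with log2 differences of 5.59 ± 0.35 and 5.75 ± 0.36.

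Cholesterol synthesis ran the other way. Of 16 tested genes of the pathway (18 listed) 10 were lower and 1 higher (median -1.05), beside 35.5% lower and 28.7% higher over all tested genes. Cyp51, the lanosterol demethylase, was at 19.3, 14.9 and 15.2 CPM in the pull-down and 55.4, 49.2 and 55.3 CPM in input (-1.69 ± 0.26). Sqle, the squalene epoxidase, was at 18, 5.95 and 4.35 CPM against 56.8, 44.0 and 58.0 CPM (-2.50 ± 0.32, and -3.37 without the first pull-down library). Pull-down values were below input for both. Ebp, a sterol isomerase late in the pathway, was the exception, at 148, 138 and 145 CPM against 48.4, 47.7 and 37.9 CPM (1.69 ± 0.23). Of 9 tested genes of lipid uptake and export (10 listed) 5 were higher and 1 lower, and 3 were higher with library totals alone. Nr1h2, the oxysterol receptor LXR beta, was at 231, 238 and 209 CPM against 128, 96.1 and 46.8 CPM (1.34 ± 0.25), and Abcg1, a sterol exporter, at 109, 132 and 108 CPM against 60.3, 57.4 and 60.2 CPM (0.97 ± 0.20).

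Related genes of the same family often differed in size or direction. Among hexokinases, which commit glucose to the cell, Hk2 was at 117, 123 and 62.0 CPM in the pull-down and 2.80, 2.98 and 1.78 CPM in input (5.31 ± 0.43), and Hk3, the leukocyte form, at 189, 155 and 158 CPM against 2.80, 2.24 and 2.68 CPM (5.95 ± 0.38). Hk1, the main brain form, was at 281, 236 and 330.4 CPM against 334, 335 and 262 CPM, with overlapping groups (-0.13 ± 0.19, adjusted p = 0.56; -0.59 with library totals alone, which passed, and 0.02 with DESeq2 size factors). Of the glucose and fructose transporters, Slc2a5 was at 313, 331 and 535 CPM against 4.2, 7.45 and 6.69 CPM (5.97 ± 0.41) and Slc2a3, the neuronal transporter, at 47.5, 56.5 and 70.7 CPM against 155, 149.8 and 119.6 CPM (-1.27 ± 0.20). Slc2a5 was above and Slc2a3 below every input library.

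Rac2, the haematopoietic Rac, was at 403, 355 and 289 CPM in the pull-down and 5.61, 8.94 and 8.03 CPM in input (5.51 ± 0.30), while the ubiquitous Rac1 was at 735, 755 and 642 CPM against 498, 541 and 471 CPM (0.50 ± 0.18; 0.03 and not passing with library totals alone). The leukocyte PI3-kinase subunits Pik3cd and Pik3cg differed by 3.29 ± 0.30 and 4.55 ± 0.48, whereas Pik3ca was at 64.2, 47.6 and 54.4 CPM against 50.5, 53.7 and 53.5 CPM and did not pass (0.08 ± 0.25, adjusted p = 0.793; -0.39 with library totals alone). The groups overlapped for Pik3ca and did not overlap for Rac1, Pik3cd and Pik3cg. Dock2 and Dock8, exchange factors of immune cells, differed by 6.54 ± 0.42 and 5.82 ± 0.36, and Dock3, a neuronal exchange factor, differed by -1.88 ± 0.29, or -2.53 without the third pull-down library. Inppl1, the broadly expressed relative of Inpp5d, was at 128, 126 and 104 CPM against 21.7, 25.3 and 32.6 CPM (2.15 ± 0.23).

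**Figure D3:**
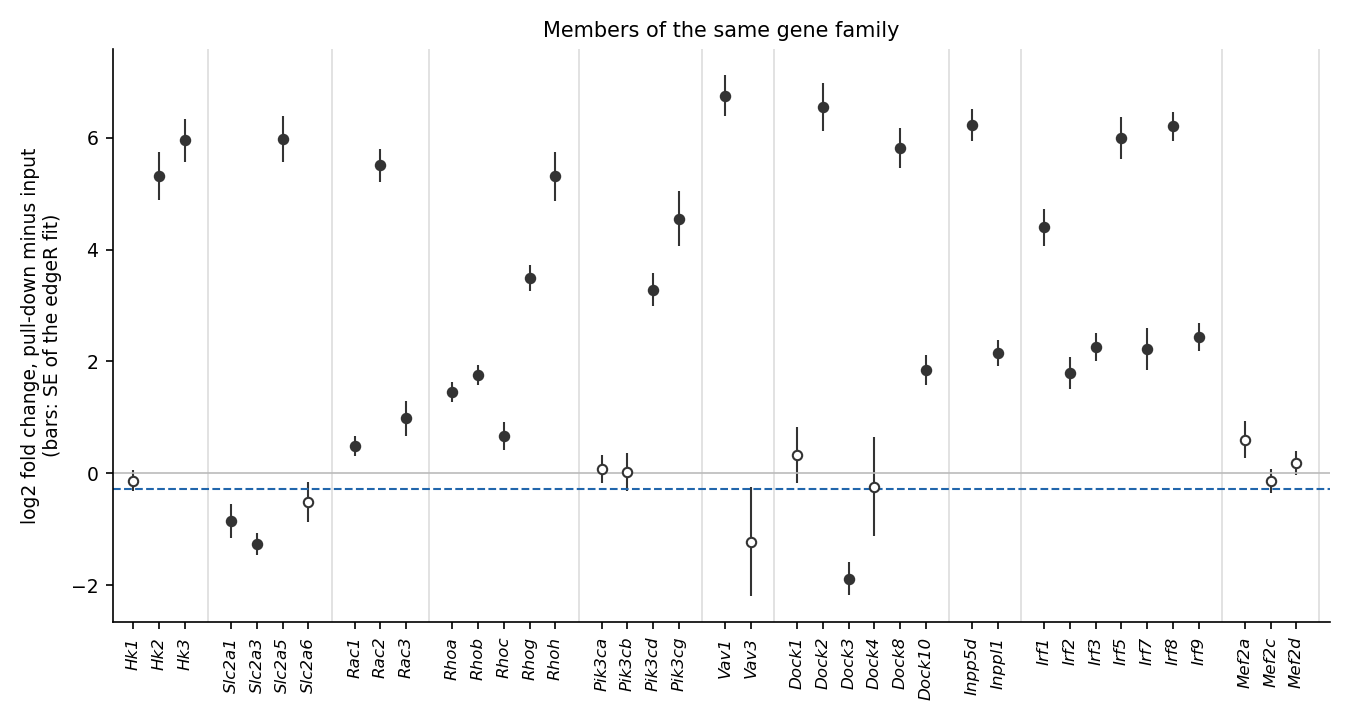
Log2 difference, pull-down minus input, with its SE for members of gene families (filled, adjusted p under 0.05; open, not passed; dashed blue line, median of all genes). Hk2, Hk3, Rac2, Pik3cd, Pik3cg, Dock2 and Dock8 lie between 3.29 and 6.54, while Hk1, Rac1 and Pik3ca lie between -0.13 and 0.50.

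Markers of other cells that the driver could tag were examined next. Of 15 border macrophage genes 13 were tested and all 13 were higher (median 5.06). Those with few input reads, such as Folr2 (120 pull-down and 2 input reads), could hardly pass the count filter except through pull-down libraries. Stab1, a scavenger receptor of perivascular macrophages and sinusoids, was at 515, 482 and 419.6 CPM in the pull-down and 2.80, 6.71 and 3.12 CPM in input (6.83 ± 0.37). Pf4, a chemokine of platelets and border macrophages, was at 455, 547 and 396 CPM against 7.71, 11.9 and 4.46 CPM (5.92 ± 0.32), and Cd163, the haemoglobin scavenger receptor, at 127, 125 and 129 CPM against 2.10, 0.745 and 0.892 CPM (6.60 ± 0.41). These were as clearly separated as microglial genes, and their part in the results above was not tested. Mrc1, the mannose receptor that defines border macrophages, was present at 18, 22.3 and 18.5 CPM against 0, 1.49 and 0.892 CPM (4.44 ± 0.66, and 5.03 without the second input library). Of 14 monocyte and neutrophil genes only 2 passed the count filter and neither was called; Ccr2, the defining receptor of inflammatory monocytes, had 0 pull-down reads and Ly6c2 had 5 over all 3 libraries. Of 16 lymphoid genes 2 were tested and both were higher. Cd79b, a chain of the B-cell receptor, was at 59.1, 55.0 and 51.1 CPM against 2.10, 1.49 and 0.892 CPM (5.18 ± 0.50), yet its partner Cd79a and the B-cell antigen Ms4a1 had 0 pull-down reads.

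Neuronal genes were lower in the pull-down. Of 17 pan-neuronal genes 16 were lower and none higher (median -1.38, beside -0.28 for all genes), with 35.5% of all tested genes called lower. Snap25, a SNARE protein of synaptic vesicle fusion, was at 265, 207 and 192 CPM in the pull-down and 1681, 2026 and 1705 CPM in input (-3.03 ± 0.20, adjusted p = 9.94e-16). Map2, which binds dendritic microtubules, was at 46.2, 35.7 and 43.5 CPM against 341, 362 and 473 CPM (-3.22 ± 0.22). Syt1, the calcium sensor of release, differed by -3.49 ± 0.24. The groups did not overlap for any of the 3. Tubb3, a neuronal tubulin and the member that did not pass, named after its values were seen, was at 229.9, 198 and 352 CPM against 538, 324 and 252 CPM (-0.51 ± 0.28; -0.79 and passing without the third pull-down library, -0.96 and passing with library totals alone).

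Markers of neuron types from several regions were lower as well. Medians were -2.59 for 9 cerebellar genes (9 lower), -2.26 for 12 tested glutamatergic genes (10 lower), -1.71 for 12 GABAergic genes (12 lower) and -1.55 for 9 striatal genes (8 lower). Calb1, a calcium buffer of Purkinje cells, was at 6.42, 7.43 and 13 CPM in the pull-down and 107, 149.8 and 181 CPM in input (-3.98 ± 0.27). Gria2, an AMPA receptor subunit, was at 19.3, 10.4 and 20.7 CPM against 117, 147 and 193 CPM (-3.15 ± 0.25), and Gad2, a GABA-synthesising enzyme, at 8.99, 11.9 and 9.78 CPM against 90.4, 96.1 and 127 CPM (-3.36 ± 0.28). All pull-down libraries lay below all input libraries. Among peptide genes Sst, somatostatin, differed by -1.67 ± 0.21 and Tac1, the substance P precursor, by -1.96 ± 0.23. Of 19 genes of aminergic and peptidergic neurons 13 were tested, of which 10 were lower (median -1.91, or -1.58 with genes at 0 reads set at their bound), and Th, the enzyme of dopamine synthesis, was at 10.3, 20.8 and 12.0 CPM against 51.9, 67.8 and 41.0 CPM (-1.91 ± 0.30).

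Transcripts known to be carried into dendrites were lower in 8 of 10 (median -1.19), and in 4 of 10 without the first pull-down, the first input or the second input library. Psd3, an Arf exchange factor of the postsynapse, was at 15.4, 17.8 and 18.5 CPM in the pull-down and 143, 136 and 226 CPM in input (-3.29 ± 0.29), and Homer1, a postsynaptic scaffold, was at 7.71, 4.46 and 5.43 CPM against 38.5, 41.0 and 59.8 CPM (-2.97 ± 0.35). Camk2a, the synaptic kinase, was at 168, 117 and 313 CPM against 517, 427 and 853 CPM (-1.58 ± 0.28), less far below input. Some genes had no pull-down read. Across the tested genes 91 had 0 reads in all 3 pull-down libraries and 2 had 0 reads in all 3 input libraries. Shisa9, an auxiliary subunit of AMPA receptors, was at 19.6, 18.6 and 28.6 CPM in input, with 117 reads there and 0 in the pull-down, at least 18.5-fold lower. Bicd1, a dynein adaptor, was at 20.3, 11.9 and 40.2 CPM in input (135 reads against 0, at least 21.3-fold lower). Fut9, a fucosyltransferase of neurons, was at 14.7, 17.1 and 35.7 CPM in input (124 reads against 0, at least 19.6-fold lower). The third input library was the highest for all 3 genes.

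Glial genes were lower with named exceptions. Of 19 astrocyte genes 14 were lower and 2 higher (median -1.37), and of 19 oligodendrocyte genes 15 were lower and 1 higher (median -1.86). As a share of counts the astrocyte list was not lower, at 1.26 to 1.40% in the pull-down and 0.974 to 1.24% in input. Apoe alone had 34995 pull-down and 26174 input reads of that list. Aqp4, the astrocyte water channel, was at 0, 2.97 and 3.26 CPM in the pull-down and 48.4, 71.5 and 89.7 CPM in input (-4.99 ± 0.53), and Slc1a2, the glutamate transporter, at 154, 183 and 200.0 CPM against 569, 621 and 577 CPM (-1.72 ± 0.24). Both were below input in every library. Mbp, a major myelin protein, was at 1259, 1021 and 1337 CPM against 2985, 2709.7 and 1883 CPM (-1.07 ± 0.31), also without overlap. Gfap, the astrocyte filament, was at 25.7, 19.3 and 32.6 CPM against 61.0, 41.7 and 36.6 CPM and did not pass (-0.81 ± 0.55, adjusted p = 0.207), although fits with the 6 libraries alone or with no filter on low counts did call it (adjusted p = 0.0261 and 0.0156 by edgeR). The exceptions were Apoe and Glul, glutamine synthetase, at 499.6, 505 and 426 CPM against 235, 249.7 and 253 CPM (0.96 ± 0.23; 0.48 and not passing with library totals alone), and Trf, transferrin, at 2643, 2242 and 1752 CPM against 531, 395 and 308 CPM (2.43 ± 0.25). Each of these was higher in every pull-down library. Of 11 genes of oligodendrocyte precursors 8 were lower and none higher (median -1.60).

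Vascular genes gave a less uniform picture. Over all tested genes 35.5% were called lower and 28.7% higher, and these shares stand beside each count of this paragraph. In the main fit the share called lower among endothelial, pericyte and smooth muscle, and erythroid genes did not exceed 35.5%. Of 12 tested endothelial genes (16 listed) 3 were lower and 2 higher (median -0.74, or -0.61 with genes at 0 reads at their bound), and they took 0.0906 to 0.107% of counts in the pull-down and 0.0715 to 0.0895% in input. Most of these counts were of Bsg, with 2754 pull-down and 2410 input reads, and without Bsg the list took 0.0126% of pull-down and 0.0294% of input counts. Cldn5, the tight junction protein of brain vessels, was at 10.3, 5.95 and 17.4 CPM against 32.2, 29.1 and 30.3 CPM, without overlap, but did not pass (-1.38 ± 0.79, adjusted p = 0.134; 0.0035 when the 6 libraries were fitted alone, 0.000397 with no filter on low counts and 0.0468 with library totals alone). Bsg, a chaperone of monocarboxylate transporters that many cells express, was at 1268, 1066 and 1141 CPM against 583, 525 and 390.0 CPM (1.22 ± 0.20), and Pecam1, an adhesion molecule also found on leukocytes, at 28.3, 41.6 and 23.9 CPM against 4.91, 6.71 and 3.57 CPM (2.63 ± 0.45). Both were above every input library. Of 6 tested pericyte and smooth muscle genes 2 were lower, and of 6 tested meningeal fibroblast genes 3 were lower, with none higher in either. Of the pericyte and smooth muscle genes 1 was lower with the DESeq2 Wald test or without the first pull-down, the third pull-down, the first input or the third input library, and 5 were with library totals alone. Of the fibroblast genes 1 was lower without the first pull-down or the third input library. Rgs5, a pericyte regulator of G protein signalling, had 3 reads in the pull-down and 104 in input, a ratio of 16.4 towards input with a 95% counting interval of 5.46 to 80.9. Of 6 tested erythroid genes, whose globin copies can share reads, 2 were lower, but none was with DESeq2 size factors or without the first pull-down, the third pull-down or the second input library, and 4 were without the second pull-down, the first input or the third input library. Of 9 tested ependymal and choroid plexus genes (12 listed) 6 were lower, or 3 without the second pull-down or the third input library. Ttr, the choroid plexus transporter of thyroid hormone, was at 466, 440.0 and 653 CPM against 1768, 1881 and 3466 CPM (-2.19 ± 0.62).

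**Figure D4:**
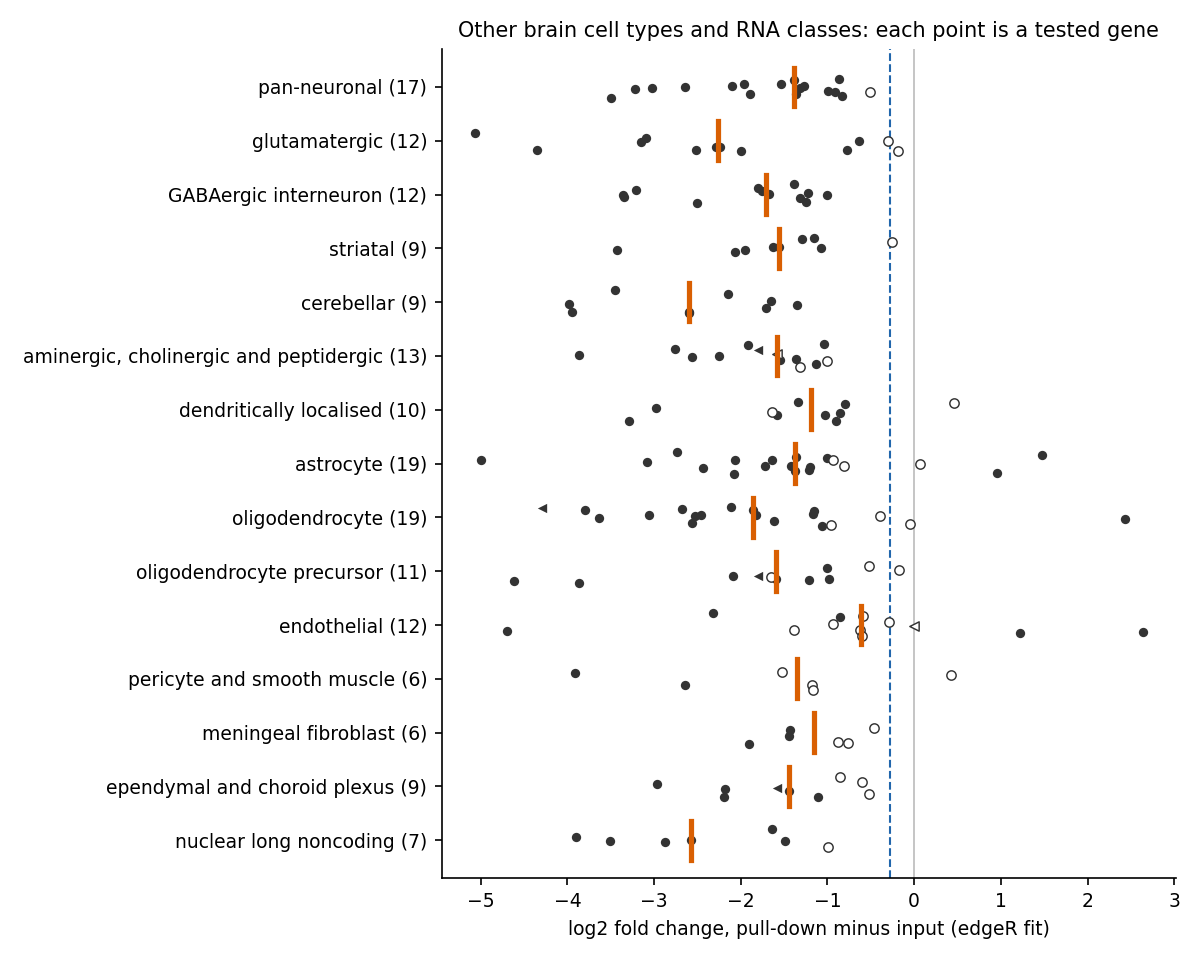
Log2 difference, pull-down minus input, of each tested gene in lists of other brain cells and RNA classes (filled, passed at adjusted p under 0.05; open, not passed; triangles, lower bounds for genes with 0 reads on 1 side; orange bar, list median; dashed blue line, median of all genes). Neuronal, astrocyte and oligodendrocyte medians lie between -1.19 and -2.59. The endothelial median, with genes at 0 reads at their bound, is -0.61, and the nuclear long noncoding median is -2.57.

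Of 7 tested nuclear long noncoding RNAs (9 listed) 6 were lower (median -2.57). Meg3 was at 14.1, 23.8 and 23.9 CPM in the pull-down and 139, 164 and 399 CPM in input (-3.51 ± 0.52, and -2.77 without the third input library), and Malat1, retained in nuclear speckles, at 7.71, 20.8 and 10.9 CPM against 101, 94.6 and 373 CPM (-3.90 ± 0.98, and -2.83 without that library). Every pull-down library was below input for both. Over all 243 tested genes annotated as noncoding RNA the median was -0.85, with 98 lower (40.3%) and 33 higher (13.6%), beside -0.27 over 11576 protein-coding genes and 35.5% lower and 28.7% higher over all tested genes. Rn45s, the precursor of ribosomal RNA, named after its values were seen, was at 683, 433 and 776 CPM against 7929.6, 5203 and 9786 CPM (-3.60 ± 0.55). Of 13 tested hosts of small nucleolar RNAs 1 was higher and 2 were lower, but 2 were higher and 1 lower with DESeq2 size factors, the DESeq2 Wald test or without the first pull-down or the second input library, and none was higher and 3 were lower with library totals alone. Genes annotated as ribosomal RNA took 0.0317 to 0.062% of pull-down counts and 0.543 to 1.05% of input counts.

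Ribosomal protein genes were mostly higher, where 28.7% of all tested genes were called higher and 35.5% lower. Of 73 tested cytosolic ribosomal protein genes (86 listed), whose many processed copies make their counts uncertain, 45 were higher and 4 lower (median 1.00; with library totals alone 35 and 7, median 0.53). Rps9, of the small subunit, was at 1788, 1938 and 1745 CPM in the pull-down and 264, 217 and 247 CPM in input (2.91 ± 0.20), and Rps3 differed by 1.97 ± 0.19. In contrast Rpl22l1, the paralogue of the tagged protein, was at 11.6, 16.4 and 9.78 CPM against 40.6, 41.7 and 31.2 CPM (-1.60 ± 0.34). Of 60 tested translation factors (62 listed) 26 were higher and 11 lower (18 and 19 with library totals alone; 7 lower without the third pull-down or the third input library). Eef2, the elongation factor of translocation, was at 2526, 2586 and 2469.7 CPM against 732, 695 and 488 CPM (1.99 ± 0.20), and Eif4ebp1, a repressor of cap-dependent initiation, at 86.0, 96.6 and 62.0 CPM against 5.61, 8.94 and 4.46 CPM (3.71 ± 0.35). Both were higher in every pull-down library.

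Of 23 tested genes of entry and folding in the endoplasmic reticulum (25 listed) 17 were higher and 3 lower (median 0.87; 12 and 6 with library totals alone). P4hb, a disulfide isomerase, was at 619, 689.7 and 568 CPM in the pull-down and 118, 145 and 207 CPM in input (1.99 ± 0.20), and Sec61a1, the translocation channel, differed by 1.90 ± 0.18. The chaperone Hspa5 went the other way, at 52.7, 71.3 and 48.9 CPM against 106, 117 and 172 CPM (-1.21 ± 0.22). Of 77 tested genes of oxidative phosphorylation (83 listed) 32 were lower and 9 higher (median -0.36, beside -0.28 for all genes; 54 and 2 with library totals alone), and of 73 tested mitochondrial ribosomal protein genes (77 listed) 20 were lower and 7 higher (median -0.01; 36 and 2 with library totals alone; 11 higher without the first or the second input library). Uqcrc2, a core subunit of complex III, was at 42.4, 23.8 and 38.0 CPM against 128, 143 and 126 CPM (-1.91 ± 0.23), below every input library. Over all tested genes 35.5% were called lower and 28.7% higher, and the mitochondrial ribosomal median lay above the median of -0.28 for all genes.

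Early response genes, which neurons and glia induce within minutes of stimulation, were split. Of 24 tested 11 were lower and 6 higher (median -0.37; 12 and 3 with library totals alone), beside 35.5% lower, 28.7% higher and a median of -0.28 over all tested genes. Egr3 was at 11.6, 5.95 and 17.4 CPM in the pull-down and 68.7, 69.3 and 108 CPM in input (-2.77 ± 0.30), Egr1 at 96.3, 104 and 115 CPM against 278, 336 and 392 CPM (-1.67 ± 0.20), and Fos at 23.1, 44.6 and 44.6 CPM against 89.0, 110.3 and 93.3 CPM (-1.38 ± 0.24). These transcription factors were below input in all 3 libraries. Zfp36, which speeds decay of cytokine mRNA, was at 51.4, 84.7 and 52.2 CPM against 11.2, 14.9 and 9.37 CPM (2.41 ± 0.34), and Btg2, an antiproliferative factor linked to mRNA decay, differed by 1.66 ± 0.26.

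The pull-down was also set against IgG1, which shares the same pull-down libraries, so both sets of values are given side by side and no overlap is drawn. Against IgG1 3659 genes were higher (30.8%) and 4191 lower (35.3%), with a median of -0.19 over all genes. Among microglial genes Tmem119 differed by 6.91 against input and 6.18 ± 0.36 against IgG1, Csf1r by 7.18 and 6.85 ± 0.31, and C1qa by 6.42 and 6.64 ± 0.32. Snap25 differed by -3.03 and -2.66 ± 0.20. For other genes the value changed with the control. Penk, the enkephalin precursor, was at 247, 258 and 205 CPM in IgG1, beside 256, 178 and 219.6 CPM in the pull-down, but at 844, 885 and 1006 CPM in input, so its difference was -2.06 ± 0.24 against input and -0.12 ± 0.24 against IgG1. Fth1, the ferritin heavy chain, differed by -0.96 ± 0.21 and 0.15 ± 0.20, Cxcl12 by -1.70 ± 0.31 and 0.56 ± 0.38, and the imprinted noncoding RNA Peg13 by -1.48 ± 0.19 and 0.15 ± 0.19. Mef2c went in the other sense, with -0.13 ± 0.21 against input and -1.96 ± 0.21 against IgG1, where it was at 272, 346 and 312 CPM. The difference between IgG1 and input in these genes was not tested.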

How the data were processed

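Reads had been processed and counted by the authors, who deposited whole-number raw read counts per gene over exons, with no normalisation, as the table's name and values show. The submitters' processing notes name bcl2fastq, HISAT 0.1.5, HOMER and the build mm9, without roles; the annotation release and the handling of strand, duplicates and multiply mapped reads are not given in the sources used here. Groups were taken from the sample titles. All 24 libraries of the driver experiment, in 9 groups, were fitted together in edgeR 4.0.16 (R 4.3.3), with TMM scaling, filterByExpr at a minimum count of 10, a robust quasi-likelihood fit and 1 mean per group, so that groups share an estimate of spread. Genes were called at a Benjamini-Hochberg adjusted p under 0.05 over all 11868 tested; glmTreat tested against a log2 fold change of 1. Values are CPM on TMM-scaled library sizes, and differences are log2 fold changes, pull-down minus input, ± SE. The SE was worked back from the test, as the absolute log2 fold change divided by the square root of the quasi-likelihood F statistic. It is therefore only approximate for genes of few reads. Every adjusted p without another name is from this edgeR test. For a group with 0 reads a floor of 3 reads over the group gives a bound; with 1 to 3 reads the count ratio is given. Counting intervals and floors cover counting error only, since no molecular identifiers are named.

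Members, gene lists, rules and tests were chosen with earlier results of these data known. Named genes were the 12 largest and 12 smallest differences at 20 CPM or more without overlap, the 8 called genes with most counts in each direction, the 3 smallest p per list with up to 2 in the other direction, members of paralogue families and a fixed set of markers, not all of which are printed; tested members of the ligand and receptor lists were added, as were genes marked as chosen after their values were seen and Spi1. Lists are described by counts and medians. On simulated counts with 200 changed genes among 11481, edgeR recovered 99 of 100 changed by a log2 of 2 and 52 of 100 changed by 1, with 9 of the unchanged genes called. Equal numbers of genes were raised and lowered there, with the same spread for every gene. In the data 64.2% of genes were called and many differed by more. The simulation therefore gives no rate of false calls for differences as many and as large as these. Alternatives in tool and scaling were the DESeq2 1.42.0 Wald test, limma 3.58.1 (voom), and edgeR with size factors of the DESeq2 type or with library totals alone. Others were other filters, only the libraries compared, a replicate block and leaving out each library. Depth, 906807 to 2084562 counts per library, limits genes of few reads. Some genes that the rule picks are not reported here.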

Additional observations from a re-analysis of the deposited data

How the results depend on the processing

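Counts of called genes moved with the filter, the scaling and the tool. At a minimum count of 50 only 6912 genes were tested, fewer than in the main fit. Of these 6912, 5002 were called against input (2519 lower) and 2448 differed by more than 2-fold (1149 lower). Against IgG1 5134 of the 6912 were called, with 2562 lower. The counts were smaller than in the main fit, but the share of tested genes called in either direction was larger in each of these comparisons. More than 2-fold lower were 3331 genes with library totals alone, 1249 with limma voom and 845 with the DESeq2 Wald test, which called 2350 in both directions; the cause was not tested. Leaving out each library gave 6882 to 7361 called genes, 3230 to 3827 beyond 2-fold, 7155 to 7376 against IgG1 and a share of 8.55 to 9.17% for the identity list in the pull-down. The replicate number is not stated to mark an animal, and same-numbered pull-down and input libraries deviated together with correlations of 0.0634, 0.0328 and 0.0437, although each pull-down library correlated best with the input of its own number; with a replicate block 7538 genes were called against 7617. Among the 150 named genes the sign changed under some alternative only for genes that did not pass. With library totals alone Gaa was at -0.33, Pik3ca at -0.39 and Rpl22 at -0.31. With DESeq2 size factors Hk1 was at 0.0171 and Mef2c at 0.0174, and with the DESeq2 Wald test they were at 0.0185 and 0.0161. Over fits without 1 library, Hk1 ran from -0.25 to 0.0433, Mef2c from -0.28 to 0.28 and Pik3ca from -0.0345 to 0.21. Of all alternative fits of named genes 2043 kept direction and side of the threshold, 9 lost a call and 22 gained one. Depth limits the genes with few reads, such as Tgfb2, Cd22 and Rgs5.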

Other observations

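Some genes annotated as noncoding RNA went against the lower median of their class; those named here were chosen after their values were seen. Zeb2os, an antisense transcript at the locus of the transcription factor Zeb2, was at 524, 666 and 454 CPM in the pull-down and 25.9, 29.8 and 26.8 CPM in input (log2 difference 4.31 ± 0.23), and at 6.76, 4.04 and 7.03 CPM in IgG1. Zeb2 itself was at 43.7, 60.9 and 39.1 CPM against 46.3, 61.9 and 64.7 CPM (-0.29 ± 0.28, adjusted p = 0.376 by edgeR). Chd3os, antisense to the chromatin remodeller Chd3, was lower, at 34.7, 20.8 and 17.4 CPM against 195, 190.0 and 361 CPM (-3.37 ± 0.27). Since the counting is not stated to use strand, reads of overlapping sense and antisense genes cannot be told apart here.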
